A study of Mus musculus with 6 samples.

Results

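A set of 28 protein-coding genes was lower in every ATM knockout tumor than in any vector control tumor, by at least 2 times in each pairing of tumors, with the exception of Glycam1, which was read in 1 control tumor and in no other tumor. The genes were chosen by their level in CPM (reads of a gene scaled to a common total of reads on all genes of the library): the lowest of 3 control tumors had to be at least 2 times the highest of 3 knockout tumors, and the control mean had to reach 2 CPM. Of 55536 annotated genes, 11843 were coding genes at that control level, and the 28 make up 0.236% of them, while the mirror rule found 51 genes that were higher in every knockout tumor, 0.430% of 11865. Potassium channel genes, genes of the cadherin superfamily with a Cdh or Pcdh symbol, and Mdm4, Gja1, Cd276, Ido2 and Gdf15 were left out by name, of which these 5 single genes passed both limits. Because the levels of these 6 tumors chose the genes, their differences between the groups are given below as a description and were not tested.

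The tumors were grown under the skin of C57BL/6J mice from about 100000 injected cells of B16, a mouse melanoma line, and were taken on day 13. One group arose from cells labelled as an ATM knockout and the other from cells with a vector control, 3 tumors each, numbered 1 to 3. Age and sex of the mice, the way ATM was disrupted, and whether the knockout cells were 1 clone or many are not given in the labels. Nothing says that each tumor had its own mouse, so tumors may share a host and may not be independent of each other. The genotype cannot be told apart from the line that carries it. Total RNA of whole tumors was sequenced, with 22101124 to 29037715 counts on genes per library. For Atm itself, control tumors 1, 2 and 3 had 2508, 2346 and 2306 reads and knockout tumors 1, 2 and 3 had 2371, 3692 and 3132. The groups overlapped, and since the disrupted stretch is not named, reads summed over the whole gene do not check the labels. Markers of the melanocyte lineage such as Pmel, Tyr and Dct were abundant in all 6 tumors, their summed level lying between 19696 and 27073 CPM in the control and between 20262 and 20897 CPM in the knockout group; of the 10 markers Dct was the one that fell (log2 fold change -0.75, edgeR adjusted p = 0.0433). Host tissue differed between single tumors: summed markers of skeletal muscle ranged from 16.7 to 6481 CPM and those of fibroblasts from 263 to 2990 CPM within the control group. In such bulk samples, fewer cells of a type and less RNA per cell cannot be told apart.

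The 28 genes have no single pathway in common. As background, 5 of them encode transporters or a channel of the cell membrane, 4 a receptor or a signal protein inside the cell, 5 a secreted or cell-surface protein, 3 a nuclear protein and 3 an enzyme or mitochondrial protein, and 8 have another role or none that is well known. Many are best known from tissues other than the pigment cell: neurons (Grm8, Camk2n2, Arnt2, Lonrf2), the choroid plexus, gut and kidney (Slc4a5, Slc5a1), adipose tissue (Hcar1), gut endocrine cells (Cck), the germ line (Rec114) and lymphoid tissue (Nuggc, Glycam1). Melanoma cells descend from the neural crest and can carry transcripts of other tissues, and a tumor also holds host cells. The deposited counts do not say which cells a transcript came from.

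Start regions are shown for 4 of the genes, since genes that move together may be compared there; these are the marker genes of the set whose RefSeq start lies within 200 bases of the start in the GENCODE annotation. Each sequence is from RefSeq (GRCm38.p6), 300 bases from 250 before to 50 after the start, read 5′ to 3′ along the gene. The regions are chrX:106485180-106485479 for Fndc3c1, chrX:104671015-104671314 for Zdhhc15, chr2:104849801-104850100 for Prrg4 and chr7:84409989-84410288 for Arnt2, all on the minus strand. Capitals mark matches on either strand to CACGTG (an E-box), TGACGTCA (the cyclic AMP response element), TGANTCA (an AP-1 site), GGGCGG (a GC box), CCAAT and TATAAA, and overlapping GC boxes were each counted.
Fndc3c1: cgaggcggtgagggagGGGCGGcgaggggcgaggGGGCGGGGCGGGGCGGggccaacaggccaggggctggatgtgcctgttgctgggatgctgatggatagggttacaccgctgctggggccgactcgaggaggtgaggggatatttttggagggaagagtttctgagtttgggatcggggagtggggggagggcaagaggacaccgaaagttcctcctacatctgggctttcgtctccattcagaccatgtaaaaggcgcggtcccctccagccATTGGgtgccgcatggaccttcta
Zdhhc15: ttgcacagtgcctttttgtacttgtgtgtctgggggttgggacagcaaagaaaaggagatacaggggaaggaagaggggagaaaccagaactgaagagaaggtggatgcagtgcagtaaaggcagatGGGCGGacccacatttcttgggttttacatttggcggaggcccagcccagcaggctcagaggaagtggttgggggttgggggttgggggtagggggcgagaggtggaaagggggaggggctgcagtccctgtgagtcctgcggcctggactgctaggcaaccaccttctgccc
Prrg4: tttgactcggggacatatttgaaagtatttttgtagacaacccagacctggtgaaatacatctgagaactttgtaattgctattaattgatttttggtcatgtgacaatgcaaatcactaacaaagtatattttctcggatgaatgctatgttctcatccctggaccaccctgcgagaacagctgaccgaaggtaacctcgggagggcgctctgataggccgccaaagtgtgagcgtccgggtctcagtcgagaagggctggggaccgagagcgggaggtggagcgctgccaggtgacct
Arnt2: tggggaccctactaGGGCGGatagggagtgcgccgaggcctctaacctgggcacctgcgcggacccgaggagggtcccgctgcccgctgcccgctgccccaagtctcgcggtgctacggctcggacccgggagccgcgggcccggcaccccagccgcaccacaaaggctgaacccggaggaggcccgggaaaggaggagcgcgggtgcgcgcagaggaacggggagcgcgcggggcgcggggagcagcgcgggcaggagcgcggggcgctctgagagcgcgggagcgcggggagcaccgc

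The start regions of the set were not alike. RefSeq regions matched 21 of the 28 genes by symbol, 18 of them with a start within 200 bases of the GENCODE start. Those of Slc4a5, Wfikkn2 and Rec114 lay 17547, 3426 and 2405 bases from it, so matches in these regions are not at the GENCODE start. CpG dinucleotides per region ranged from 0 in Glycam1 to 53 in Gnai1, with a median of 13, beside a median of 21 over 9441 coding genes at the same control level, and 10 of the 21 regions held at least 15, a number that 71.4% of all 9441 regions reached. GC boxes were found in 10 of the 21 (47.6%, and 65.1% of all), 4 in the Fndc3c1 region, 1 each in those of Zdhhc15 and Arnt2 and none in that of Prrg4. A CCAAT box was in 7 (33.3%, and 38.9% of all). The E-box was in 4, those of Slc5a1, Cck, Gnai1 and Rec114 (19.0%, and 10.2% of all), an AP-1 site in that of Grm8 (4.76%, and 4.72% of all), TATAAA in that of Slc4a5 (4.76%, and 7.07% of all), and TGACGTCA in none (3.25% of all). A match is a run of letters and does not show that a factor binds there.

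Fndc3c1 and Zdhhc15 lie near each other on the X chromosome and are among the most abundant genes of the set. Fndc3c1 (ENSMUSG00000033737.14, chrX:106420041-106485401) encodes a protein with fibronectin type III repeats. It was read at 135, 141 and 126 CPM in control tumors 1, 2 and 3 and at 14.5, 20.3 and 21.3 CPM in knockout tumors 1, 2 and 3. All 3 control tumors were high and close to each other, and the knockout tumors kept 13.96% of the control mean (134 ± 7.45 and 18.7 ± 3.69 CPM, SD, n = 3 per group). Zdhhc15 (ENSMUSG00000033906.5, chrX:104536969-104671064), a palmitoyltransferase that attaches fatty acids to membrane proteins at the Golgi, was at 43.4, 41.7 and 37.6 CPM in the controls and at 12.7, 13.5 and 12.9 CPM in the knockout tumors. For Zdhhc15 too the tumors of a group differed little and the groups lay far apart, the control mean being 3.14 times the knockout mean. The starts of Zdhhc15 and Fndc3c1 are 1.81 Mb apart. Per kilobase of exon, Fndc3c1 had the highest control level of the set (21.2 CPM per kb), and Zdhhc15 was at 7.42 CPM per kb.

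**Figure D1:**
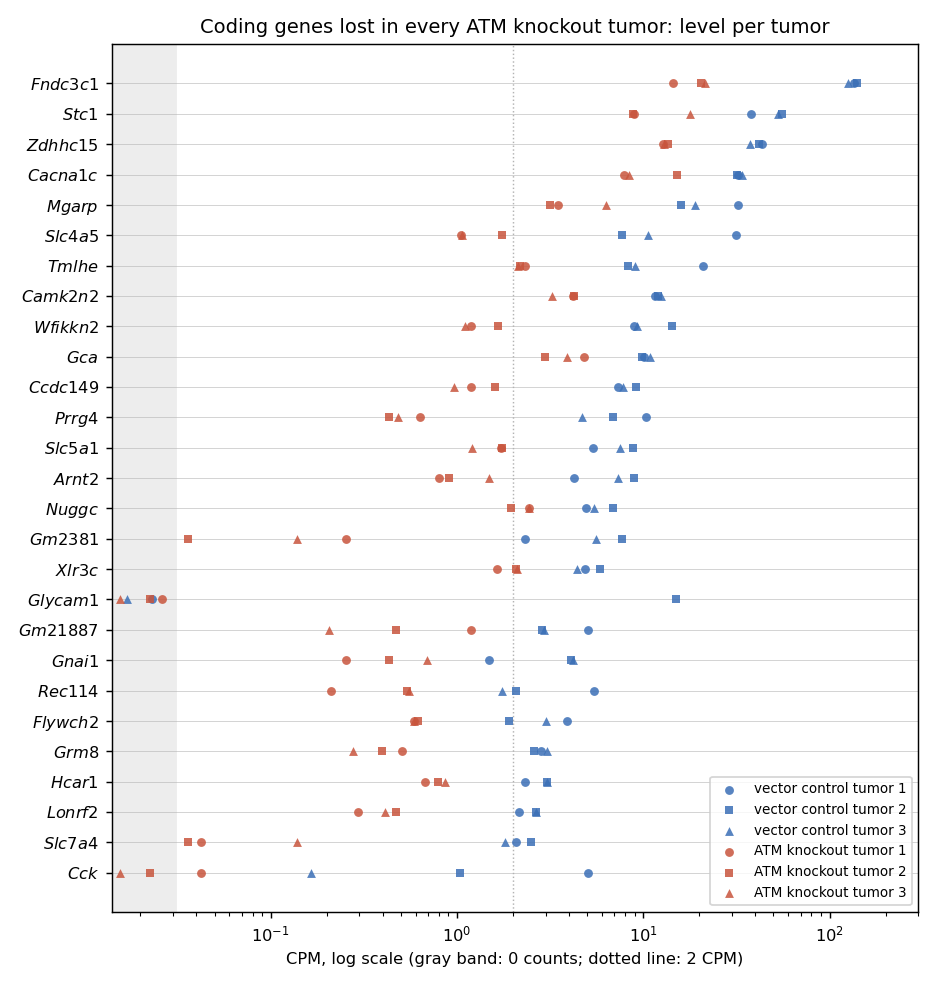
Level of 27 of the 28 genes (rows, ordered by control mean; 1 gene is not drawn) in CPM on a log scale, with 1 symbol per tumor (blue, vector control; red, ATM knockout). Blue and red symbols do not overlap in any row except Glycam1, which was read in control tumor 2 alone and at 0 counts in the other 5 tumors, and the gap is widest for Slc7a4.

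In total 5 of the 28 genes (17.9%) have coordinates on the assembled X chromosome, beside 3.25% of the coding genes at the same control level. Genes on separate scaffolds, Tmlhe among them, were counted with no chromosome. Of the 5, Xlr3c and Gm21887 lie elsewhere on the X chromosome, with no other member of the set within 1 Mb. Xlr3c, of a lymphocyte-regulated gene cluster, was at 4.87, 5.88 and 4.39 CPM against 1.65, 2.06 and 2.10 CPM, and Gm21887, a predicted gene near the end of the chromosome, at 5.08, 2.85 and 2.94 against 1.18, 0.471 and 0.207 CPM. Xlr3c belongs to a family of near-identical copies and lies inside the annotated span of Xlr5a, and Gm21887 and the further predicted gene Gm2381 may share reads with copies too, so the counts of these 3 are uncertain. Chromosome 5 held 4 of the set (Gnai1, Slc5a1, Ccdc149 and Hcar1), none within 1 Mb of another. That is 14.3%, beside 6.34% of the coding genes at the same control level. Chromosome 6 held 3 (Grm8, Slc4a5 and Cacna1c), or 10.7% beside 5.08%.

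Of the genes around Zdhhc15 and Fndc3c1 that the rule did not choose, several were also lower in the knockout tumors. Within 1 Mb of either start, 23 further genes had enough counts to be tested with edgeR, and 8 of them (34.8%) fell at an adjusted p below 0.05, beside 2.75% of all 15696 genes tested (431 lower; 347 or 2.21% were higher). On the X chromosome as a whole, 30 of 506 tested genes fell (5.93%) and 56 rose. The median log2 fold change of the 23 genes, knockout minus control, was -0.27, and 19 of the 23 were below 0. Rlim, a ubiquitin ligase that acts in X inactivation, was at 639, 633 and 546 CPM in the controls and at 322, 354 and 377 CPM in the knockout tumors (log2 fold change -0.84 ± 0.11, SE, edgeR adjusted p = 0.0205). Atrx, a chromatin remodeler, was at 793, 689 and 611 CPM against 346, 431 and 417 CPM (-0.86 ± 0.14, adjusted p = 0.0331). In both genes every knockout tumor was below every control tumor.

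Nearby genes that also fell were Nexmif (-2.08), Pbdc1 (-0.81), Magt1 (-0.69), 5530601H04Rik (-0.66) and Uprt (-0.63), and their adjusted p-values lay between 0.0121 and 0.0350. Nexmif, a gene known for its role in neurons, was low in all tumors, at 0.828 to 1.10 CPM in the controls and 0.211 to 0.241 CPM in the knockouts. Pbdc1 and 5530601H04Rik start next to each other on opposite strands, and the strand setting of the counting was not given in the sources used here. Farther out, Jpx, a noncoding RNA gene of the X-inactivation center, fell as well (21.3, 20.4 and 21.1 CPM against 8.83, 10.4 and 9.30 CPM; -1.19 ± 0.11, adjusted p = 0.00889). Between 1 and 2 Mb from the nearer of the starts, it was the 1 called of 9 tested genes, whose median was -0.37. Fndc3c1 and Zdhhc15 themselves were at -2.89 and -1.70, and of the neighbors named here only Nexmif lay below -1.70.

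The number of calls among these 23 genes changed with the tumors used. It was 10 without control tumor 1, 4 without control tumor 3 or knockout tumor 3, 1 without knockout tumor 2 and 0 without control tumor 2 or knockout tumor 1, and the number below 0 was 13 to 20. The median lay between -0.62 (without knockout tumor 3) and -0.26. DESeq2 and limma-voom called 8 each.

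**Figure D2:**
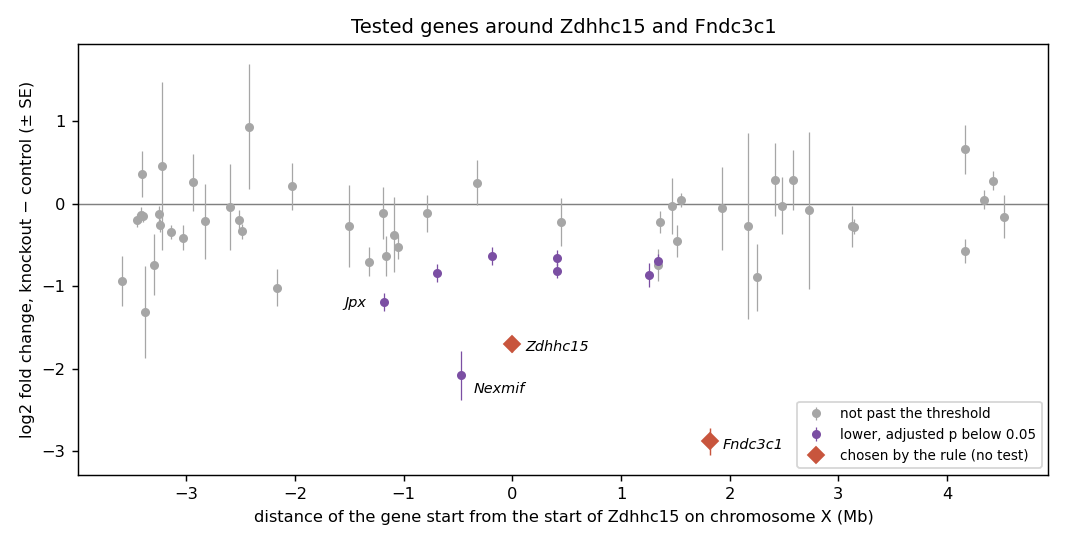
Log2 fold change (knockout minus control, ± SE from the edgeR fit) of each tested gene against the distance of its start from that of Zdhhc15 on chromosome X, in Mb. The labelled diamonds are Zdhhc15 and Fndc3c1, chosen by the rule, and the purple points are neighbors with an adjusted p below 0.05, all of which lie below 0 and between Jpx and Fndc3c1; 2 genes of the region are not drawn.

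Over the whole set, 541 further tested genes start within 1 Mb of one of the 28, and 25 of them fell (4.62%) and 7 rose (1.29%), beside 2.75% and 2.21% of all tested genes. Of the 541, 309 were below 0 (57.1%, beside 50.9% of all tested genes), and by member the share varied: 14 of 16 around Nuggc (median -0.49), 40 of 51 around Hcar1 (median -0.20) and 3 of 12 around Prrg4 (median 0.20). Of the 25 that fell, 9 lie on the X chromosome between Jpx and Fndc3c1 and 8 lie on chromosome 14, around Nuggc and Stc1, a chromosome on which 21.4% of all tested genes fell and the median log2 fold change was -0.35. Among those 8, Trim35 was at 165, 167 and 169 CPM against 121, 112 and 114 CPM (-0.58 ± 0.06, adjusted p = 0.0103) and Elp3, beside Nuggc, at 73.1, 91.8 and 85.1 against 61.7, 60.8 and 60.3 CPM (-0.50 ± 0.08, adjusted p = 0.0330). The other 8 lay beside 7 members of the set, at most 2 to a member, among them the Wnt ligand gene Wnt5b beside Cacna1c (-1.46) and Cd276, itself left out by name, beside Rec114. Around Prrg4, 2 neighbors rose, Depdc7 (1.22 ± 0.22, edgeR adjusted p = 0.0361) and Hipk3 (0.52 ± 0.10, edgeR adjusted p = 0.0458). Prrg4 lies on chromosome 2, where 70 of 1194 tested genes rose, 19 fell and the median log2 fold change was 0.15. Around Lonrf2 the sulfotransferase gene Chst10 rose (2.20 ± 0.42, edgeR adjusted p = 0.0417). It was at 0.254, 0.724 and 0.290 CPM in the controls and at 2.20, 2.03 and 1.83 CPM in the knockout tumors. No tested neighbor passed in either direction around 9 members on placed chromosomes, among them Wfikkn2 (23 tested genes), Ccdc149 (16), Mgarp (18) and Slc7a4 (43). The 25 became 1 without control tumor 2, 7 without control tumor 3, 0 without knockout tumor 1, 3 without knockout tumor 2 and 10 without knockout tumor 3, and DESeq2 called 61. The 7 became 0 without control tumor 2 or any 1 knockout tumor, 1 without control tumor 3 and 15 without control tumor 1.

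Genes of ion and solute transport were lost from different families. Slc4a5 (ENSMUSG00000068323.12, chr6:83219828-83304945), a sodium bicarbonate cotransporter of choroid plexus and kidney, was at 31.6, 7.69 and 10.6 CPM in the controls and at 1.06, 1.74 and 1.07 CPM in the knockout tumors. Control tumor 1 stood far above the other controls, and the fitted log2 fold change of -3.75 became -2.85 without it. Slc5a1, the sodium-glucose cotransporter SGLT1, was at 5.38, 8.82 and 7.53 CPM against 1.73, 1.74 and 1.21 CPM. Slc7a4, a relative of the cationic amino acid transporters, had the widest separation of all: 49, 55 and 44 counts (2.08, 2.49 and 1.82 CPM) in the controls and 1, 1 and 4 counts (0.0423, 0.0362 and 0.138 CPM) in the knockout tumors. Its lowest control tumor was 13.2 times its highest knockout tumor, although the level was low throughout. Cacna1c, the pore subunit of the L-type calcium channel of heart, smooth muscle and neurons, was even in the controls (32.3, 31.9 and 33.7 CPM) and uneven in the knockout tumors (7.86, 15.2 and 8.44 CPM). Summed skeletal muscle markers were at 16.7, 52.9 and 6481 CPM in the controls and at 2335, 6167 and 515 CPM in the knockout tumors; their part in the level of Cacna1c was not tested. Dcp1b, which overlaps Cacna1c on the opposite strand, had a mean of 40.4 CPM in the controls and of 42.5 CPM in the knockouts.

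Of the receptors and signal proteins, 3 belong to signaling through inhibitory G proteins by textbook knowledge. Grm8, a metabotropic glutamate receptor that couples to inhibitory G proteins, was at 2.84, 2.58 and 3.06 CPM against 0.507, 0.398 and 0.276 CPM. Hcar1, the lactate receptor of fat cells, which couples to the same class of G proteins, was at 2.33, 3.03 and 3.06 CPM against 0.676, 0.796 and 0.861 CPM. Gnai1, an inhibitory G protein subunit, was at 1.48, 4.12 and 4.18 CPM against 0.254, 0.434 and 0.689 CPM, so that control tumor 1 stood low. Camk2n2, an inhibitor of the calcium-dependent kinase CaMKII in neurons, was at 11.6, 12.0 and 12.5 CPM against 4.18, 4.27 and 3.24 CPM. Grm8, Hcar1 and Gnai1 were below 1 CPM in all knockout tumors, whereas Camk2n2 kept 32.4% of its control mean. Summed adipocyte markers were 38.8, 289 and 204 CPM in control tumors 1, 2 and 3 and 31.1, 36.3 and 73.1 CPM in the knockout tumors. Control tumor 1, the lowest of the controls for Hcar1, also had the fewest adipocyte transcripts of them. Knockout tumor 3 had more adipocyte transcripts than control tumor 1 (73.1 and 38.8 CPM) but less Hcar1 (0.861 and 2.33 CPM). The part of adipocytes in the level of Hcar1 was not tested.

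Among the secreted and surface proteins, Stc1 was the most abundant, and Cck and Glycam1 had most of their reads in 1 tumor. Stc1, which encodes the glycoprotein hormone stanniocalcin, was at 37.9, 55.3 and 52.8 CPM in the controls and at 8.92, 8.76 and 17.8 CPM in the knockout tumors, where tumor 3 was about 2 times the others. Prrg4 (ENSMUSG00000027171.10, chr2:104830741-104849876), a membrane protein with a domain of carboxylated glutamates, was at 10.4, 6.92 and 4.68 CPM against 0.634, 0.434 and 0.482 CPM. Wfikkn2 (ENSMUSG00000044177.4, chr11:94235956-94246005), a secreted protein with protease inhibitor modules that binds the growth factors myostatin and GDF11, was at 8.94, 14.2 and 9.23 CPM against 1.18, 1.66 and 1.10 CPM. For both, no knockout tumor reached 2 CPM and no control tumor was below 4 CPM. Cck, the gene of the gut and brain peptide cholecystokinin, had 120, 23 and 4 counts in control tumors 1, 2 and 3 and 1, 0 and 0 counts in the knockout tumors. Glycam1, a mucin-like ligand of L-selectin on vessels of lymph nodes, had 330 counts (14.9 CPM) in control tumor 2 and 0 counts in each of the other 5 tumors, which allows up to 3 counts in each. It met the rule only because 0 is not below 2 times 0, and 27 genes remain where the lowest control tumor must be above 0. Summed B and plasma cell markers were 2.12, 19.3 and 5.05 CPM in control tumors 1, 2 and 3 and 1.85 to 3.42 CPM in the knockout tumors, so they too were highest in control tumor 2; their part in Glycam1 was not tested. Glycam1 and Cck had too few libraries with counts to enter the edgeR fit, which held the other 26.

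Genes of the nucleus and of enzymes follow. Arnt2 (ENSMUSG00000015709.9, chr7:84246278-84410176), a bHLH-PAS factor that pairs with SIM1 and NPAS4 in neurons, was at 4.24, 8.91 and 7.28 CPM against 0.803, 0.905 and 1.48 CPM. Rec114, needed for the DNA breaks of meiosis, was at 5.42, 2.08 and 1.74 CPM against 0.211, 0.543 and 0.551 CPM, and it overlaps the abundant gene Nptn on the opposite strand (147 and 137 CPM). Nuggc, a GTPase of germinal center B cells, was at 4.96, 6.88 and 5.42 CPM against 2.45, 1.95 and 2.44 CPM. Nuggc was lowest in control tumor 1 and highest in control tumor 2, as were the summed B and plasma cell markers given above for the controls; their part in the level of Nuggc was not tested. Mgarp, a mitochondrial protein, was at 32.1, 15.97 and 18.9 CPM against 3.51, 3.15 and 6.30 CPM. Tmlhe, the enzyme of the first step of carnitine synthesis, was at 20.9, 8.28 and 9.06 CPM against 2.32, 2.17 and 2.14 CPM. For Mgarp and Tmlhe, control tumor 1 was well above the other controls. Tmlhe is annotated on the separate scaffold GL456233.1 in this build, without a position along a chromosome, so its neighbors on a chromosome are not known here.

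The remaining genes are less well characterized. Ccdc149, a coiled-coil protein, was at 7.28, 9.10 and 7.78 CPM against 1.18, 1.59 and 0.964 CPM, and Lonrf2, a RING-type ubiquitin ligase of neurons, at 2.16, 2.67 and 2.65 CPM against 0.296, 0.471 and 0.413 CPM. Gm2381, a predicted gene, was at 2.33, 7.74 and 5.59 CPM against 0.254, 0.0362 and 0.138 CPM. Flywch2, a FLYWCH-family gene, was at 3.896, 1.90 and 3.02 CPM against 0.592, 0.615 and 0.585 CPM. Gca, which encodes grancalcin, a calcium-binding protein of neutrophils and macrophages, was at 10.1, 9.86 and 10.9 CPM against 4.82, 2.97 and 3.89 CPM. Summed macrophage markers were at 318, 766 and 1008 CPM in control tumors 1, 2 and 3 and at 705, 661 and 858 CPM in the knockout tumors; their part in the level of Gca was not tested. Next to the 2-fold limit, the ratio of lowest control to highest knockout tumor was 2.02 for Nuggc, 2.05 for Gca and 2.09 for Xlr3c inside it, and 1.99 for 4930432K21Rik, 1.955 for Abca13 and 1.95 for Dcdc2a outside it. At the level limit, Dok6 (1.80 CPM) and Wnt5b (1.63 CPM) met the 2-fold limit but not the control mean.

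Among the 27 genes read in every control tumor, control means ranged from 2.10 to 134 CPM (median 7.24) and knockout means from 0.0141 to 20.1 CPM (median 1.29). Control means were 2.52 times the knockout mean or more, with a median of 5.84, and 16 of the 27 were past 5-fold. The control level was low for most: 16 genes lay under 10 CPM and 5 over 30 CPM, beside a median of 37.7 CPM over all coding genes that reached 2 CPM. Within the control group the median coefficient of variation was 19.3%, beside 9.29% over those coding genes, and within the knockout group 23.8% beside 8.16%. The set lies at lower levels than those coding genes, and the part of counting noise in this difference was not tested. For 14 genes the highest control tumor was under 1.5 times the lowest, and for 10 it was over 2 times the lowest. Control tumor 1 was at least 1.5 times both other control tumors for 6 genes (22.2%, beside 1.99% of all those coding genes). They were Cck, Gm21887, Mgarp, Rec114, Slc4a5 and Tmlhe. For 3 genes (Arnt2, Gm2381 and Gnai1), both other control tumors were at least 1.5 times control tumor 1 (11.1% beside 10.1%). The same control levels had chosen the genes, so these shares do not show a trait of the set. Cck and Rec114 reached a control mean of 2 CPM only through control tumor 1. That tumor had the highest summed melanocyte markers (27073 CPM) and the lowest fibroblast markers (263 CPM) of the 3; the part of cell makeup in these differences was not tested.

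Applying the rule to 5 tumors at a time showed how far each tumor narrowed the set. Since a gene chosen from all 6 tumors is also chosen from 5 unless its control mean falls short, the genes kept below are nearly all members of the set (26 to 28 of the 28 were among those chosen each time), and their number is no support for it. Without knockout tumor 1, 29 genes were chosen from the other 5 tumors, and 28 of them were past the 2-fold limit in the tumor left out (96.6%), beside 0.676% of all coding genes at the control level. The count was 28 of 41 for knockout tumor 2 (68.3% beside 0.600%) and 28 of 44 for knockout tumor 3 (63.6% beside 0.498%). For control tumors 2 and 3 it was 27 of 33 (81.8% beside 1.03%) and 30 of 35 (85.7% beside 1.39%). Control tumor 1 narrowed the set most, with 115 genes chosen without it and 26 kept (22.6% beside 0.661%). Among the 89 not kept were all 6 adipocyte markers of the list (Adipoq, Cidec, Fabp4, Lep, Plin1 and Retn). Adipoq, the gene of adiponectin, was at 0, 29.9 and 13.9 CPM in control tumors 1, 2 and 3 and at 0.845, 0.362 and 5.54 CPM in the knockout tumors.

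**Figure D3:**
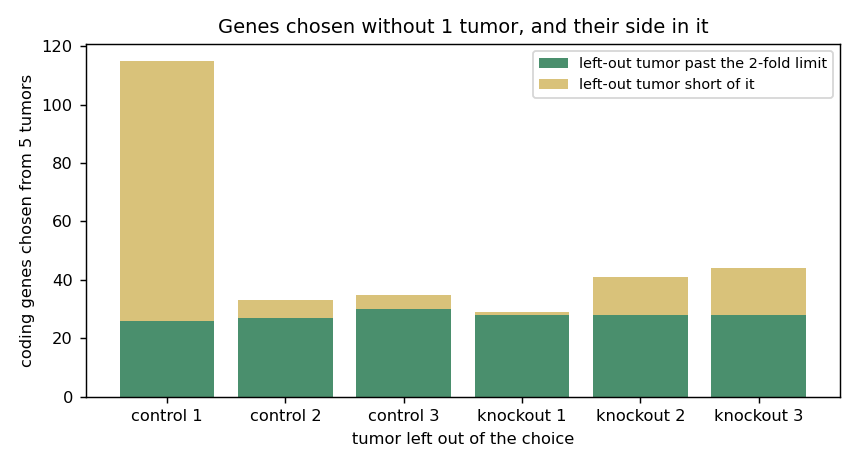
Number of coding genes chosen from 5 tumors (bar height) when the tumor named below each bar was left out, split by whether the left-out tumor was past the 2-fold limit (green) or short of it (yellow). The green part is largely the set itself, and the yellow part, the genes that the left-out tumor kept out, is largest for control tumor 1, with 89 genes.

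Among genes related to the lost ones by family or pathway, calls were not clearly more or less frequent than among all tested genes. Over 7 families of the marker genes and Tmlhe, 65 relatives were tested, of which 3 fell and 1 rose, with a median log2 fold change of 0.01, beside 2.75% lower and 2.21% higher over all tested genes. Fndc3a, listed in the same family as Fndc3c1, was at 140, 137 and 140 CPM in the controls and at 86.2, 81.5 and 97.6 CPM in the knockout tumors (-0.70 ± 0.09, edgeR adjusted p = 0.0193), and it lies on chromosome 14. Fndc3b, of the same family, was at a mean of 95.8 CPM against 79.1 CPM and did not pass (edgeR adjusted p = 0.122). Prrg1 fell too (11.1, 13.9 and 11.8 CPM against 6.09, 6.70 and 8.40 CPM; -0.84 ± 0.17, adjusted p = 0.0476), as did the bicarbonate cotransporter gene Slc4a7 (81.3, 75.7 and 74.7 CPM against 57.3, 61.6 and 58.7 CPM; -0.43 ± 0.08, adjusted p = 0.0351). Zdhhc2, a palmitoyltransferase of the same family as Zdhhc15, rose from 15.5, 21.2 and 18.3 CPM to 37.3, 42.5 and 34.4 CPM (1.01 ± 0.13, adjusted p = 0.0216). In these 4 genes the groups did not overlap. By family, the medians lay between -0.12 (bHLH-PAS factors) and 0.12 (genes of the myostatin and GDF11 branch), apart from the proline-rich Gla proteins, of which 1 of 3 tested fell and the median was -0.62.

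The partners of Arnt2 named above, Sim1 and Npas4, had too few counts to be tested. None of 10 other bHLH-PAS factors passed in edgeR (Ahr, the dioxin receptor, was at -0.99 with an adjusted p of 0.137, Arnt, the abundant paralog, at 0.05), while 3 had an unadjusted p below 0.05, DESeq2 called 2 and limma-voom 0. None of 9 genes of the myostatin and GDF11 branch passed in edgeR (Gdf11 at 0.37, its receptor gene Acvr2b at -0.13), with 1 at an unadjusted p below 0.05, 1 called by DESeq2 and 0 by limma-voom. None of 10 further genes of carnitine synthesis and uptake passed in edgeR, with 3 at an unadjusted p below 0.05, 2 called by DESeq2 and 0 by limma-voom. The 3 relatives that fell were 0 without control tumor 2, control tumor 3, knockout tumor 1 or knockout tumor 2, and the 1 that rose was 0 without any 1 tumor other than control tumor 1 and 5 without that one, although the fold changes of these 4 kept their sign in every setting tried.

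**Figure D4:**
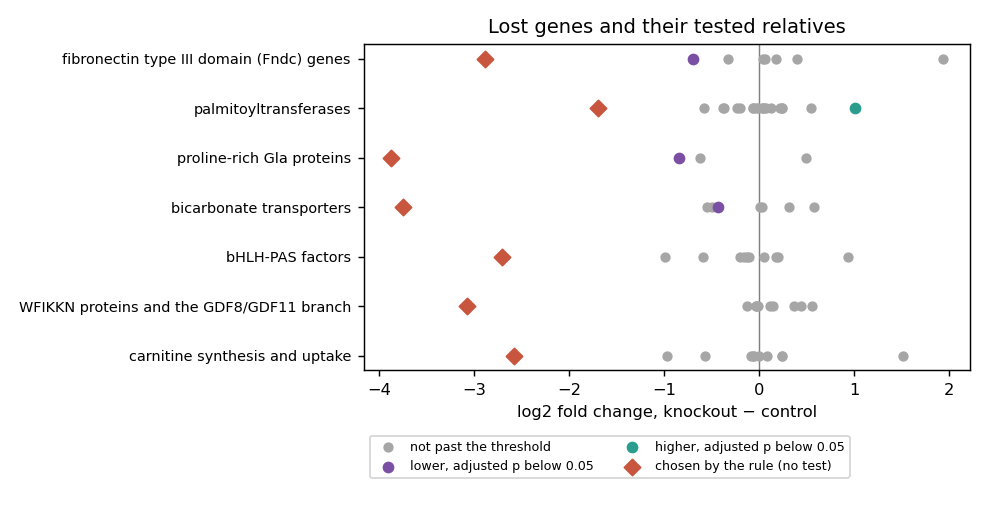
Log2 fold change (knockout minus control) of the chosen gene of each family (red diamond) and of its tested relatives (circles), 1 row per family. Each diamond, chosen for its low knockout level, lies to the left of all its relatives. Purple circles are the 3 relatives that fell and the teal circle is Zdhhc2, which rose.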

How the data were processed

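The deposited files give 1 raw count per gene and library for 6 tumors, and these counts were used as deposited. Trim Galore, cutadapt, STAR, SAMtools and HTSeq, without versions or roles, and the builds GRCm38 and mm10 are named in the submitters' processing notes. All 55536 identifiers and symbols matched GENCODE M21, which supplied GRCm38 coordinates. Rows that name no gene (16.7% to 18.2% of reads outside genes and 1.21% to 1.38% on several genes) were left out of totals. CPM is the count divided by the summed gene counts of the library, scaled to a common total. Counting precision follows from 22101124 to 29037715 counts per library, beside the spread between tumors.

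The members, lists and alternatives were chosen with earlier results of these data known. By the rule for named genes, values per tumor were given for the 6 markers, the 10 members with the largest ratio of lowest control to highest knockout tumor, the 6 with the highest control mean, members within 1 Mb of another and the 3 just inside the 2-fold limit; those of the other members were added after they were seen. Called neighbors, relatives and host markers could be named, and uncalled ones (Fndc3b, Ahr, Arnt, Gdf11, Acvr2b, Adipoq) were picked after their values were seen. Genes were tested with edgeR 4.0.16 (filterByExpr, minimum count 10 and total 15; TMM factors 0.959 to 1.03; robust quasi-likelihood F test; Benjamini-Hochberg over 15696 genes, threshold 0.05), in R 4.3.3. Alternatives were median-ratio factors, library size alone, other filters, DESeq2 1.42.0, limma-voom (limma 3.58.1), a replicate block, other limits of the rule, windows of 0.5 and 2 Mb, and each tumor left out. Fold changes on the log2 scale and their SE come from the same fit; RefSeq promoters are from GRCm38.p6. Some items, among them 1 member, are not reported here.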

Additional observations from a re-analysis of the deposited data

How the results depend on the processing

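Of the alternatives to the rule, a fold limit of 1.5 gave 78 genes, a limit of 3 gave 15, a control mean of at least 5 CPM gave 18, and leaving out 1 tumor gave 29 to 115 (44 without knockout tumor 3, 115 without control tumor 1); other scalings gave 29 to 33. Requiring a lowest control value above 0, chosen after seeing the data, gave 27. DESeq2 called 1150 genes lower and 920 higher, 61 neighbors lower and 23 higher, and 7 relatives lower and 6 higher. With 1 tumor left out, the calls were 2 to 622 lower and 0 to 587 higher over all genes, 0 to 32 and 0 to 15 among neighbors, and 0 to 4 and 0 to 5 among relatives. A window of 0.5 Mb held 16 lower and 4 higher neighbors, and one of 2 Mb 40 and 16. A filter of 1 CPM in 3 libraries called 11 neighbors and 3 relatives higher, library size alone 3 relatives and no filter 2. With the replicate block, 0 genes passed in either direction, neighbors and relatives included (0 lower and 0 higher each); same-numbered tumors did not deviate together (correlations 0.0437, -0.272 and -0.42), so the numbers were not taken as pairs. The causes of these shifts were not tested. Fold changes were recomputed for 18 members, not for all 26 in the edgeR fit. All 198 were below 0, which the rule fixed in advance, so their sign is no support for the set. Of the 198, 3 moved by more than the spread between tumors. These were Cacna1c (-2.05 without knockout tumor 2), Slc4a5 (-2.85 without control tumor 1) and Slc7a4 (-5.64 without knockout tumor 3). With 3 tumors a group and most members under 10 CPM, single tumors weigh heavily, and levels under 3 counts are not told from 0.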

Other observations

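Genes that would have entered the set but for 1 tumor fall outside it and are given as values. Knockout tumor 3 alone kept 16 such genes out, 4 of them erythroid markers (Alas2, Hba-a1, Hbb-bs and Hbb-bt). Hbb-bs, a beta-globin gene, was at 336, 39.7 and 475 CPM in control tumors 1, 2 and 3 and at 13.1, 5.72 and 297.5 CPM in knockout tumors 1, 2 and 3. Vegfa, the vascular growth factor gene, was at 362, 253 and 212 CPM against 98.1, 100.7 and 233 CPM. Ero1l, an oxidase of the endoplasmic reticulum, was at 531, 534 and 430 CPM against 155, 144.5 and 353 CPM, and Ankrd37 at 8.68, 11.2 and 10.1 CPM against 3.34, 3.58 and 8.75 CPM. That knockout tumor 3 lies nearest the controls in these genes follows from how they were found. They were picked after their values were seen, and no test was made of them.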
